A study of Mus musculus with 4 samples.

Results

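The SLAM family receptors were described across 4 Affymetrix expression arrays of mouse bone marrow KLS cells, which are lineage-negative cells positive for c-Kit and Sca-1 and hold hematopoietic stem cells and early progenitors. The family was taken as the 9 genes Slamf1, Cd48, Cd244, Ly9, Cd84, Slamf6, Slamf7, Slamf8 and Slamf9, and its members were found by symbol in the platform annotation. All 9 were matched, 1 of them through a synonym, since Cd244 is listed as Cd244a. Each had 1 probe set with a single symbol, so the family is 9 of the 28939 probe sets tested and 9 of the 19938 genes named. The study labelled 2 arrays Klf7-/- (the knockout) and 2 arrays Klf7+/+ (wild type), from C57Bl/6 mice. Both groups came from chimeric mice made with fetal liver cells, whose marrow mixed cells of both genotypes, and the RNA of both was amplified before labelling. The age of the animals, the number of mice behind each array and how cells of each genotype were told apart in the sort are not stated in the labels. The p-values thus measure only how far these 4 samples spread, which may be technical spread.

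SLAM receptors are immunoglobulin-superfamily proteins on blood cells. Most bind a copy of themselves on a neighbouring cell, while CD244 binds CD48. Many signal through a short tyrosine motif in the cytoplasmic tail that recruits small adaptors of the SAP family, and CD48, anchored in the membrane by a lipid, has no such tail. In mouse marrow they are used to sort within the KLS gate: CD150, the product of Slamf1, marks long-term stem cells, whereas CD48 and CD244 are absent from those cells and appear on multipotent and more restricted progenitors.

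The windows before the starts of Slamf1, Cd48 and Cd244a are shown because these genes encode the 3 antigens of that sorting scheme, and because factors of the Kruppel-like family, to which Klf7 belongs, bind CACCC boxes. Each is the 250 bases before the annotated start, from RefSeq on GRCm38.p6, and capitals mark CACCC on either strand (GGGTG on the other).
Slamf1, chr1:171766882-171767131, plus strand: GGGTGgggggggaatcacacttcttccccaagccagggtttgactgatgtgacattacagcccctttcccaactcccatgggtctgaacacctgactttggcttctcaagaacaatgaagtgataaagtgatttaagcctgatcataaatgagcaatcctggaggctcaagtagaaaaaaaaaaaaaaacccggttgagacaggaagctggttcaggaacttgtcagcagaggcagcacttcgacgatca
Cd48, chr1:171681742-171681991, plus strand: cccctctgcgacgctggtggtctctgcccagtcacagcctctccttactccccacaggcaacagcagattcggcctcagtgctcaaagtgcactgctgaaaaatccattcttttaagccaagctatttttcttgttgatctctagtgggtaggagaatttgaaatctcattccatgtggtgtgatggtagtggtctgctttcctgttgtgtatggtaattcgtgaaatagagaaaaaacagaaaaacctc
Cd244a, chr1:171558943-171559192, plus strand: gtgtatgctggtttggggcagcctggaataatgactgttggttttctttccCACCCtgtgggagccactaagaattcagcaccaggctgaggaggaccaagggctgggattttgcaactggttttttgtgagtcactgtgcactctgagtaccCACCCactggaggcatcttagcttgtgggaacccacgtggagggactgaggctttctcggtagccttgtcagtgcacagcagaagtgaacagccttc
Slamf1 held 1 match, at the far end of its window, Cd244a held 2, and Cd48 held none. A window was found for 8 of the 9 members, and 4 of those 8 held the letters, against 52% of 32851 such windows over all genes. The longer GC box GGGCGG, searched on both strands as well, was in 0 of the 8 member windows and in 32.7% of all windows. A match describes letters and not a bound site, and no binding was measured.

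On the arrays as a whole, the correlation of log2 intensity between arrays lay between 0.961 and 0.969 across probe sets, which are not independent replicates. The only probe set of Klf7 read 6.59 and 6.18 (log2 intensity) on the knockout arrays against 5.95 and 6.10 on the wild-type arrays, so the knockout arrays did not read lower. The labels do not state the deleted part of Klf7, and a probe set outside it checks nothing; the arrays are called knockout and wild type by their labels. Xist, the RNA of the inactive X chromosome, read 11.76 and 11.58 in knockout against 5.24 and 4.80 in wild type, so its signal divided the arrays as the labels did, and genotype and Xist signal cannot be told apart in any comparison made here. All 9 members lie on chromosome 1, and so does Klf7. Whether that shared chromosome plays a part in the member values was not tested. Kit read between 9.55 and 10.12, above the 95th percentile of every array, and so did Cd34. Ly6a, which encodes Sca-1, was not analysed here. Of 36 measured markers of mature blood lineages, 13 had a mean above that of the median named gene, 5.77, and 0 passed the limma threshold, with 1 at an unadjusted p under 0.05. The summed intensity of 7 monocyte, macrophage and dendritic markers was 319 to 410 in knockout against 438 to 445 in wild type. That of 6 T cell markers was 242 to 249 against 256 to 271. Both sums were thus lower in knockout without overlap, while the sums of the other 5 lineages overlapped. Most genes of both sums were dim: only 1 of the 7 and 2 of the 6 had a mean above that of the median named gene. Whether the others stood above background was not tested. By gene, 2 of the 7 and 1 of the 6 were lower without overlap, and 1 of the 7 was higher. Among all named genes 18.6% were lower and 14.5% higher in that sense. Lyz2, the brightest of the 7, overlapped, at 194 and 97 in knockout against 218 and 182 in wild type. The part of mature cells in the SLAM values was not tested.

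No SLAM receptor differed between knockout and wild type beyond the threshold. Cd48 had the largest difference, 1.42-fold higher in knockout, followed by Cd84 at 1.32-fold; Slamf1 was within 1.06-fold. With limma, 0 of the 9 had an adjusted p under 0.05 and 0 an unadjusted p under 0.05. Over all probe sets, 0.00346% passed after Benjamini-Hochberg adjustment and 5.01% before it. In 6 members the knockout mean was the higher and in 3 the lower, where 45.0% of named genes were higher, with a median difference of 0.08 (log2) against -0.03 over all named genes. That median turned to -0.13 without wild-type replicate 2 and stood at 0.17 without wild-type replicate 1. The 95% confidence intervals of all 9 included 0. Those of 8 members left out a 2-fold rise, that of Cd48 did not, and all 9 left out a 2-fold fall.

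**Figure D1:**
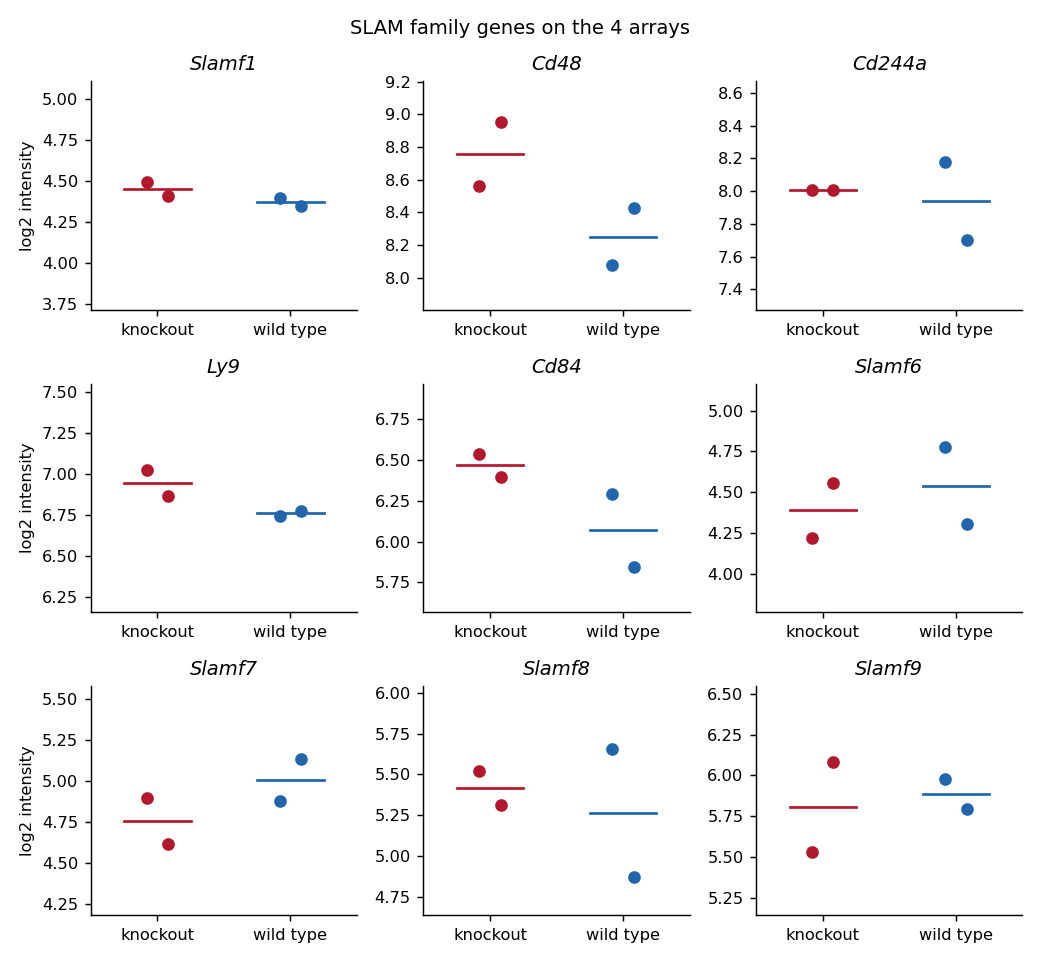
Log2 intensity of each SLAM family gene on each array (points) with the group mean (line), knockout in red and wild type in blue, 2 arrays a group; each panel has its own centre and spans 1.4 log2 units, so heights are not comparable between genes. The groups did not overlap for Slamf1, Cd48, Ly9 and Cd84 and overlapped for the other 5 genes; Slamf1 overlapped too after cyclic loess or a second quantile normalization.

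Slamf1 encodes CD150, the receptor that marks stem cells in the sorting scheme. Its probe set read 4.49 and 4.41 (log2) on the knockout arrays against 4.40 and 4.35 on the wild-type arrays. All 4 readings were below the first quartile of their arrays, which lay between 4.66 and 4.79, so the gene was dim on every array, and whether it stood above background was not tested. The group means differed by 0.08 ± 0.15 (SE, n = 2 per group; 95% confidence interval -0.33 to 0.48; limma adjusted p = 0.989). That SE, like every SE given after ± here, is from the limma fit, which also draws on the variance of the other probe sets. The groups did not overlap, but the lowest knockout and the highest wild-type array were only 0.01 apart. The 2 knockout arrays differed between themselves by 0.08, as much as the groups did.

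Cd48 encodes the lipid-anchored receptor that progenitors carry and that is the ligand of CD244. Its intensity was 377 and 495 in knockout against 270 and 344 in wild type, which is 8.56 and 8.95 against 8.08 and 8.43 on the log2 scale. Both knockout arrays were above both wild-type arrays, and the closest pair was 0.13 apart. The difference of 0.50 ± 0.23 (SE, n = 2 per group; interval -0.10 to 1.11) had a limma adjusted p of 0.946. It exceeded the gaps within the groups, 0.39 in knockout and 0.35 in wild type, and 5.39% of named genes had a larger positive difference. Without knockout replicate 2 the difference stood at 0.31 and without wild-type replicate 1 at 0.33.

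Cd244a encodes 2B4, the receptor for CD48 that is best known from natural killer cells. It read 8.01 on both knockout arrays and 8.18 and 7.70 on the wild-type arrays. The wild-type arrays lay on either side of the knockout pair, and their gap of 0.47 was far larger than the group difference of 0.07 ± 0.22 (SE, n = 2 per group; interval -0.50 to 0.64; limma adjusted p = 0.997). The sign of the difference therefore depended on which wild-type array was kept: it was -0.17 without wild-type replicate 2 and 0.31 without wild-type replicate 1.

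Because CD150, CD48 and CD244 are read together in the stem cell gate, the log2 value of Slamf1 was also taken relative to Cd48 and to Cd244a within each array. Such a difference shows only whether 2 genes changed unequally, never which was the more abundant. Since Slamf1 was dim and its standing above background was not tested, a contrast with it may only restate the other gene's difference. Slamf1 minus Cd48 was -4.07 and -4.54 in knockout against -3.68 and -4.08 in wild type. The means differed by -0.42, the SD was 0.34 in knockout and 0.28 in wild type, and the groups overlapped (exact permutation test, two-sided, p = 0.667). Slamf1 minus Cd244a was -3.52 and -3.60 in knockout against -3.78 and -3.36 in wild type, a difference of 0.01 (exact permutation test, two-sided, p = 1). Over both contrasts the Benjamini-Hochberg adjusted p was 1. With 2 arrays against 2 the smallest p such a test allows is 0.333, so neither contrast could have passed.

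**Figure D2:**
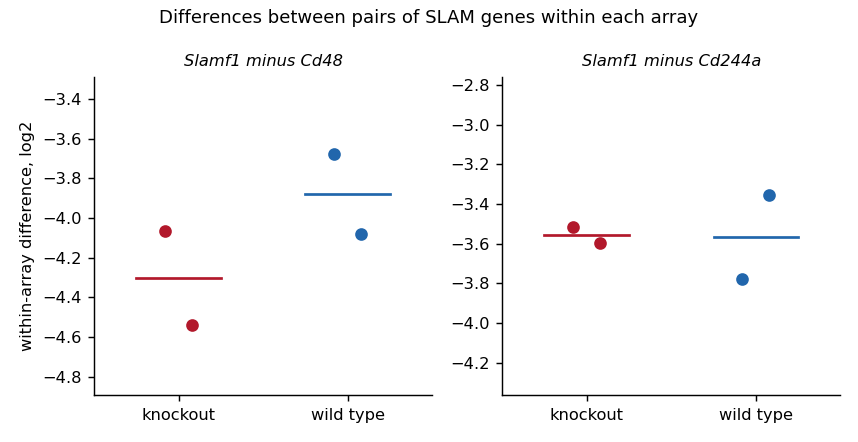
Log2 value of Slamf1 minus that of Cd48 (left) and of Cd244a (right) within each array, as points with the group mean as a line, knockout in red and wild type in blue. The groups overlapped in both panels, with Slamf1 minus Cd48 at -4.07 and -4.54 in knockout against -3.68 and -4.08 in wild type.

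Ly9 and Cd84 encode self-binding receptors with cytoplasmic tyrosine motifs that are widely present on blood cells. Ly9 read 7.02 and 6.87 in knockout against 6.75 and 6.78 in wild type, so the groups did not overlap. Its difference of 0.18 ± 0.16 (SE, n = 2 per group; interval -0.24 to 0.60; limma adjusted p = 0.956) was slightly above the 0.16 between the knockout arrays. Cd84 read 6.54 and 6.39 in knockout against 6.29 and 5.85 in wild type, again without overlap. Here the wild-type arrays were 0.44 apart, more than the difference of 0.40 ± 0.21 (SE, n = 2 per group; interval -0.17 to 0.96; limma adjusted p = 0.949), which stood at 0.18 without wild-type replicate 2 and at 0.62 without wild-type replicate 1.

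Slamf6 and Slamf7 encode receptors known mainly from lymphocytes and natural killer cells. Slamf6 read 4.22 and 4.56 in knockout against 4.78 and 4.30 in wild type, and Slamf7 read 4.90 and 4.61 in knockout against 4.88 and 5.14 in wild type. Both genes had means below that of the median named gene, and both overlapped between the groups. Slamf6 was below the first quartile of every array except wild-type replicate 1, and whether it stood above background was not tested. Their differences were -0.15 ± 0.24 for Slamf6 and -0.25 ± 0.20 for Slamf7 (SE, n = 2 per group). Single arrays set these sizes. Without knockout replicate 2, Slamf7 stood at -0.11 and Slamf6 at -0.32, and without wild-type replicate 2 at -0.13 and -0.39. Without knockout replicate 1 they stood at -0.40 and 0.02, and without wild-type replicate 1 at -0.38 and 0.085, so Slamf6 turned.

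Slamf8 and Slamf9 encode the short-tailed members of the family, which lack the adaptor-binding motif and are known from myeloid cells. Slamf8 read 5.52 and 5.31 in knockout against 5.65 and 4.88 in wild type. Its wild-type arrays were 0.78 apart, the widest gap within a group for any member, against a difference of 0.15 ± 0.30 (SE, n = 2 per group). Slamf9 read 5.53 and 6.08 in knockout against 5.98 and 5.79 in wild type, with the wild-type pair inside the knockout pair and a difference of -0.08 ± 0.24. For Slamf6, Slamf7, Slamf8 and Slamf9 the limma adjusted p ran from 0.955 to 0.997.

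**Figure D3:**
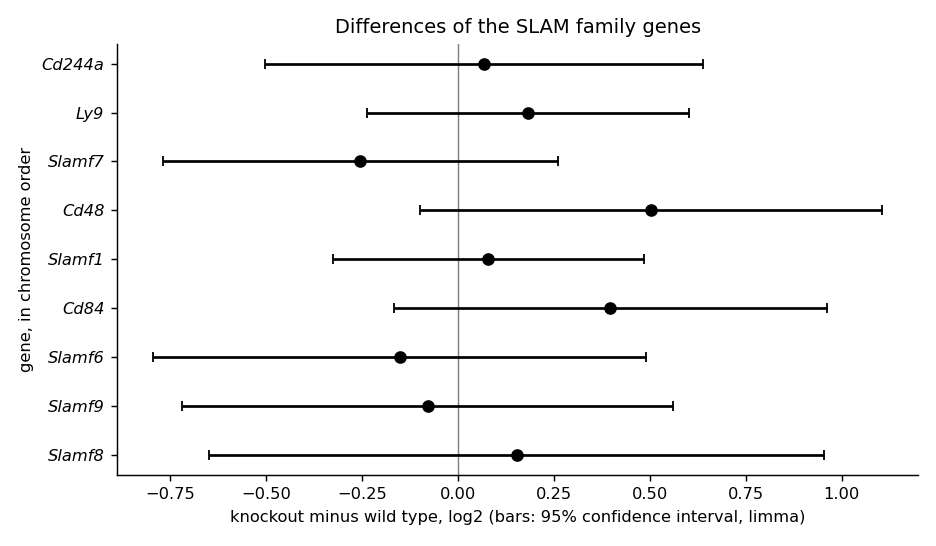
Difference between knockout and wild type for each SLAM family gene on the log2 scale (points) with the 95% confidence interval of the limma fit (bars), in the order of the genes along chromosome 1. Every interval included 0, and that of Cd48, from -0.10 to 1.11, reached furthest above it.

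In all, 4 members (44.4%) were higher in knockout without overlap between the groups and 0 were lower, where 14.5% of all named genes were higher and 18.6% lower in that sense. The count was 3 after cyclic loess or a second quantile normalization, under both of which Slamf1 overlapped, and 3 with dim probe sets left out, which removes Slamf1. The 4 were Slamf1, Cd48, Ly9 and Cd84, and only for Cd48 and Ly9 did the group difference exceed the gap between arrays within both groups. The share of all named genes that meet this stricter condition was not computed. Leaving out each array in turn kept the direction of 5 members, namely the 4 without overlap and Slamf7. For those 4 the direction could not have turned, so this adds nothing to the lack of overlap. Cd244a, Slamf6, Slamf8 and Slamf9 each turned at least once.

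**Figure D4:**
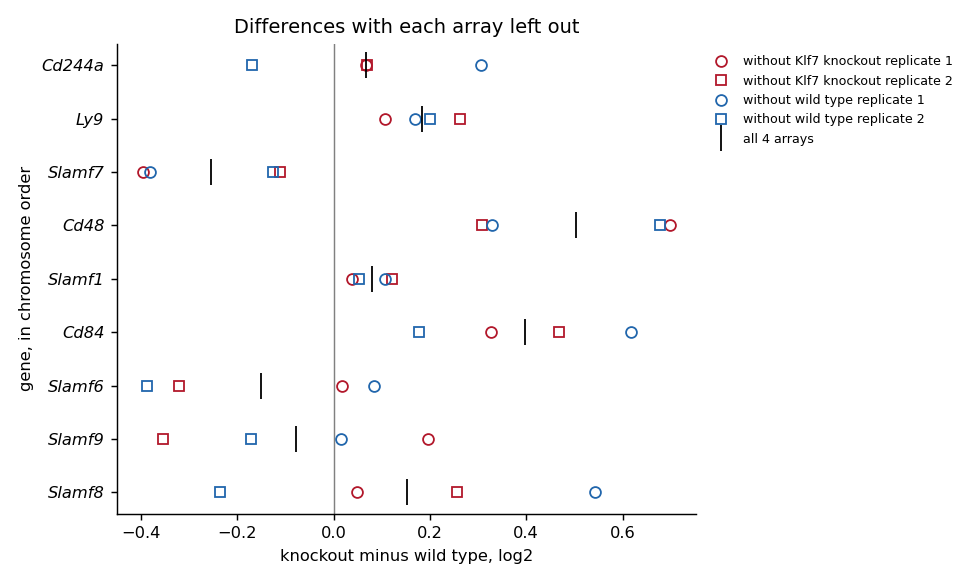
Difference between knockout and wild type on the log2 scale for each SLAM family gene with all 4 arrays (black bar) and with each array left out in turn (red symbols for a knockout array, blue for a wild-type array; circles for replicate 1, squares for replicate 2). Cd48 stayed between 0.31 and 0.70, whereas the symbols of Cd244a, Slamf6, Slamf8 and Slamf9 lay on both sides of 0. For genes whose groups did not overlap, such as Cd48, leaving out an array cannot turn the direction.

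Along chromosome 1 the members run in the order Cd244a, Ly9, Slamf7, Cd48, Slamf1, Cd84 and Slamf6, with Slamf9 and Slamf8 further along, separated from Slamf6 by other genes (RefSeq, GRCm38.p6). The 4 members without overlap lie in the first stretch but are not all adjacent, since Slamf7, with the opposite sign, lies between Ly9 and Cd48. Of 17 other measured genes in the span, 7 were higher and 10 lower in knockout, and the median difference was -0.0049. Without overlap 2 were higher and 3 lower, where 14.5% of all named genes were higher and 18.6% lower in that sense. All 17 lie beyond Slamf6. No other gene of the first stretch was measured, so these values do not describe the neighbours of the 4 members.

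Of 18 genes listed for SLAM signalling, 17 were measured. With limma 0 passed and 0 had an unadjusted p under 0.05. In knockout 5 were higher and 12 lower, with a median difference of -0.16 against -0.03 over all named genes. The median of the list was -0.05 without knockout replicate 2 or wild-type replicate 2, -0.29 without knockout replicate 1, and -0.05 with dim probe sets left out. Without overlap 2 were higher and 5 lower, where 14.5% of all named genes were higher and 18.6% lower in that sense. Among the brighter genes, Fyn, the kinase that the adaptor SAP brings to the receptors, read 6.49 and 6.50 in knockout against 7.11 and 6.73 in wild type, a difference of -0.43 ± 0.20 (SE, n = 2 per group). The phospholipase gene Plcg1 differed by -0.39 ± 0.15. Ptpn6, which encodes the phosphatase SHP-1 that can bind the same tyrosine motif, differed by 0.34 ± 0.15 and did not overlap between the groups. The adaptor genes, singled out after their values were seen, were dim: Sh2d1a (SAP) differed by -0.47 ± 0.20, Sh2d1b1 (EAT-2) by -0.57 ± 0.26 and Sh2d1b2 by -0.08 ± 0.23. All 3 had means under the first quartile of every array. Sh2d1a lies on the X chromosome, and Xist divided the arrays as the labels did; the part of that in its value was not tested.

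Among 15 genes listed for the stem and progenitor gates, 13 were measured and 0 passed in limma. An unadjusted p under 0.05 was found for 2 of them, and for 5.01% of all probe sets. In knockout 7 were higher and 6 lower, 5 and 3 of them without overlap. Of all named genes 14.5% were higher and 18.6% lower without overlap. In bulk RNA, fewer cells of a type and less RNA per cell cannot be told apart. Cd34, a sialomucin gained as stem cells become multipotent progenitors, read 10.24 and 10.22 in knockout against 9.65 and 9.57 in wild type. Its difference was 0.62 ± 0.15 (SE, n = 2 per group; limma adjusted p = 0.945). Flt3, a cytokine receptor gene of multipotent and lymphoid progenitors, differed by 0.48 ± 0.19 and Kit by 0.39 ± 0.17. Mecom, a stem cell transcription factor gene, differed by -0.71 ± 0.25 on the brighter of its 2 probe sets. Mecom did not overlap between the groups either, and nor did Esam, an adhesion molecule gene of stem cells, at -0.39 ± 0.16, and Il7r, a cytokine receptor gene of lymphoid progenitors, at -0.29 ± 0.20. The 5 genes higher without overlap were Cd34, Flt3, Kit, Dntt at 0.34 ± 0.18 and Itga2b at 0.14 ± 0.16. Other stem cell genes differed by -0.23 ± 0.27 (Hoxb5), -0.06 ± 0.18 (Fgd5) and 0.01 ± 0.16 (Procr). Esam, Il7r, Dntt, Itga2b, Hoxb5, Fgd5 and Procr were singled out after their values were seen. Members of the list thus lay on both sides of 0, and whether any moves with Cd48 was not tested.

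**Figure D5:**
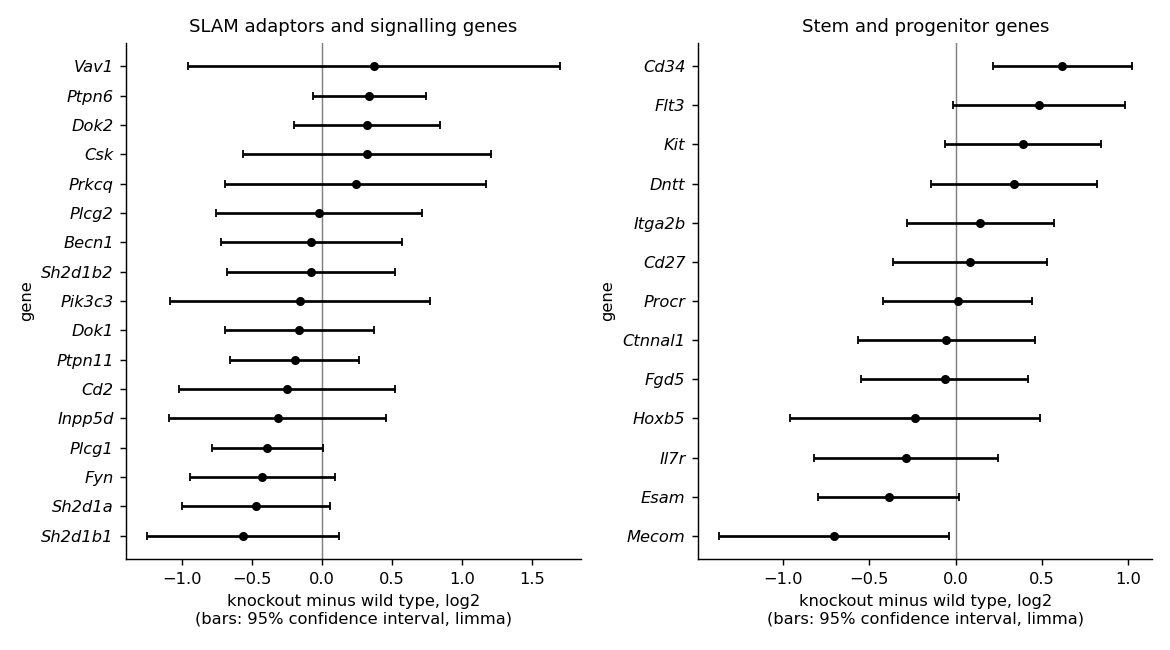
Difference between knockout and wild type on the log2 scale (points) with the 95% confidence interval of the limma fit (bars) for 17 SLAM adaptor and signalling genes (left) and 13 stem and progenitor genes (right), sorted by size. The intervals of Cd34 and Mecom left out 0 before adjustment, and no gene passed after it.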

How the data were processed

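Total RNA of sorted KLS cells was amplified with the NuGen Ovation system and hybridised to 4 arrays, per the labels' protocols. The authors deposited one table of intensity values by probe set. The submitters' processing notes name RMA and Affymetrix Expression Console, with no version. The values were read as linear, since RMA log2 values could not reach their range, and log2 was taken. Median intensity per array was 51.0 to 52.3, and no further normalization was applied. The first 6615 of 35554 probe sets, which precede the first annotated one, were taken as controls and left out. Genes came from the platform annotation of 2016, updated through RefSeq; a gene with several probe sets was represented by the brightest. Groups were compared in R 4.3.3 with limma 3.58.1 (lmFit, eBayes, two-sided, Benjamini-Hochberg over 28939 probe sets, threshold 0.05, 2 residual degrees of freedom), and every adjusted p is from that fit. Detection calls were not used here, and the number of arrays limits precision. All members are named; of other lists, up to 4 brighter genes by size of difference, or any past the threshold. One gene that this rule takes is not reported here. Members and lists were chosen with earlier results of these data known. The fit was tested on simulated data. Alternatives covered a filter on dim probe sets, normalization, an offset, the variance prior, a block for the replicate number, leaving out each array, averaging a gene's probe sets and the control probe sets.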

Additional observations from a re-analysis of the deposited data

How the results depend on the processing

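No member passed the threshold in any of the 13 alternatives, where the lowest adjusted p was 0.687. Of 113 member values, 107 kept their direction and 6 turned, all with an array left out (cause not tested): Cd244a ran from -0.17 to 0.31, Slamf6 from -0.39 to 0.085, Slamf8 from -0.24 to 0.54 and Slamf9 from -0.35 to 0.20. The number of members lower without overlap was 1 to 3, and higher 4 to 6 (3 with cyclic loess, a second quantile normalization or the dim filter), in fits that leave out an array, since 3 arrays overlap less readily than 4. The filter on dim probe sets left 5 members, so the contrasts with Slamf1 could not be made there. Over all probe sets 1 probe set (Xist) passed in limma; 0 passed with an offset of 32, an intensity trend with or without robust estimation, a second quantile normalization or the control probe sets kept, and 0 to 0 in fits that leave out an array; the cause was not tested. With the replicate block 0 passed as well, on 1 residual degree of freedom. The fits that leave out an array also have only 1. The labels do not say that equal numbers share a mouse, and same-numbered arrays deviated from their group means with a correlation of 0.0434. Slamf1 minus Cd48 ran from -0.66 to -0.19 with an array left out.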

Other observations

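Among the lineage markers, Ppbp, a platelet chemokine gene singled out after its values were seen, read 6.00 and 5.47 in knockout against 4.85 and 4.14 in wild type, a difference of 1.24 ± 0.33 (SE, n = 2 per group; limma adjusted p = 0.945). On wild-type replicate 2 Ppbp was under that array's first quartile of 4.79, and whether it stood above background there was not tested. The summed intensity of the 4 measured megakaryocyte and platelet genes was 575 to 672 in knockout and 429 to 614 in wild type, so the groups overlapped.

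The differences between arrays of equal number had opposite signs in 5 of the 9 SLAM genes, the same 5 whose groups overlapped. For Slamf6 they were -0.56 for number 1 and 0.25 for number 2, and for Slamf9 -0.45 and 0.29. For Cd48 they were 0.48 and 0.52, the same sign, which any pairing gives for a gene whose groups do not overlap.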
